A study of Rattus norvegicus with 48 samples.

Results

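The guide strands of the miR-26 and miR-101 families were followed in rat liver during exposure to thioacetamide (TAA), a hepatotoxicant and liver carcinogen of rodents. The 4 miRNAs were rno-miR-26a-5p, rno-miR-26b-5p, rno-miR-101a-3p and rno-miR-101b-3p (written without the rat prefix from here on), chosen by name out of 664 mature rat miRNAs with at least 1 read. Each was listed for 1 precursor, and all 4 were among the 301 miRNAs that passed the filter on low counts (at least 5 RPM, reads scaled to a common library total, in at least 3 libraries). The miRNA-seq libraries came from livers of 48 male Sprague-Dawley rats, with 3 rats in each of 16 groups. Rats were dosed with TAA daily at 4.5 mg/kg (low dose), 15 mg/kg (middle dose) or 45 mg/kg (high dose) over 3, 7, 14 or 28 days, written 3-d to 28-d here, and 1 control group for each duration was given the vehicle. The age of the rats was not given in the sources used here.

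A miRNA is cut from a hairpin precursor as a duplex, of which the guide strand is loaded into Argonaute and directs the repression of messenger RNAs that pair with its seed, while the other strand is mostly degraded. miR-26a and miR-26b lie in introns of genes for small C-terminal domain phosphatases, and miR-26 is known to restrain cyclins and the Polycomb methyltransferase EZH2. miR-101 is known to target EZH2, MCL1 and FOS, and both families are described as tumor suppressors that are low in hepatocellular carcinoma. That description is background, since no target, protein or tumor was measured here.

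The mature sequences below show why the 4 miRNAs form 2 families and how little separates the members of each. The sequences are RNA, written from the 5′ end, from RefSeq on the rat assembly GRCr8, with the seed (bases 2 to 8) in capitals.
miR-26a-5p (chr8:127633063-127633084, plus strand): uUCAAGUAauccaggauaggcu
miR-26b-5p (chr9:83425723-83425743, plus strand): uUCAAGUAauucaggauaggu
miR-101a-3p (chr5:121081691-121081711, minus strand): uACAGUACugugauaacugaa
miR-101b-3p (chr1:236273982-236274002, plus strand): uACAGUACugugauagcugaa

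Counted from 1 at the 5′ end of miR-26a-5p, miR-26b-5p carries C11U and C21U, and it is shorter, with 21 bases against 22. miR-101b-3p carries A16G relative to miR-101a-3p, and both have 21 bases. Within each family the seed is identical, and no other rat mature entry in the RefSeq table carried either seed. In the RefSeq annotation the precursor of miR-26a lies within Ctdspl, that of miR-26b within Ctdsp1, that of miR-101b within Rcl1 and that of miR-101a within the long non-coding RNA LOC120102934. The number of mismatches allowed in counting was not given in the sources used here, so the split of reads between such near-identical sequences is uncertain.

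Library totals were between 293331 and 14906217 counts. Replicate 1 of the 3-d controls had the smallest total and stood apart. Its correlation with its group mates (Pearson r over miRNAs) was 0.887 to 0.894, against at least 0.976 for every other pair within a group. The summed level of 4 red blood cell markers (miR-451-5p, miR-486 and both strands of miR-144) was 98080 RPM in it and 2786 to 6724 RPM in the 11 other controls. The 5 hepatocyte markers (both strands of miR-122, miR-192-5p, miR-194-5p and miR-148a-3p), which define the labelled tissue, summed to 150925 RPM in it and to 284698 to 315480 RPM in the other controls, and none of the 5 was at 0 in most libraries. Comparisons that used this library are therefore given with and without it. Levels are given as RPM after upper quartile normalization (normalized RPM), and log2 fold changes come from edgeR's quasi-likelihood F-test with Benjamini-Hochberg adjusted p over the 301 tested miRNAs. A differentially expressed miRNA (DEM) had an unadjusted p below 0.05 and a fold change above 1.5. In bulk liver, fewer cells of a type and less RNA per cell cannot be told apart.

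miR-26a-5p was among the most abundant miRNAs of the liver. It ranked 3 of 664 by mean RPM in controls and in treated rats, with 74188 RPM and 60519 RPM. Its family mate miR-26b-5p ranked 19 in controls with 8408 RPM and 18 in treated rats with 8958 RPM. miR-101b-3p ranked 24 and 20 (6476 and 7471 RPM), and miR-101a-3p ranked 39 and 38 (1965 and 2315 RPM). Within each family, one member thus dominated, miR-26a-5p over miR-26b-5p and miR-101b-3p over miR-101a-3p.

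**Figure D1:**
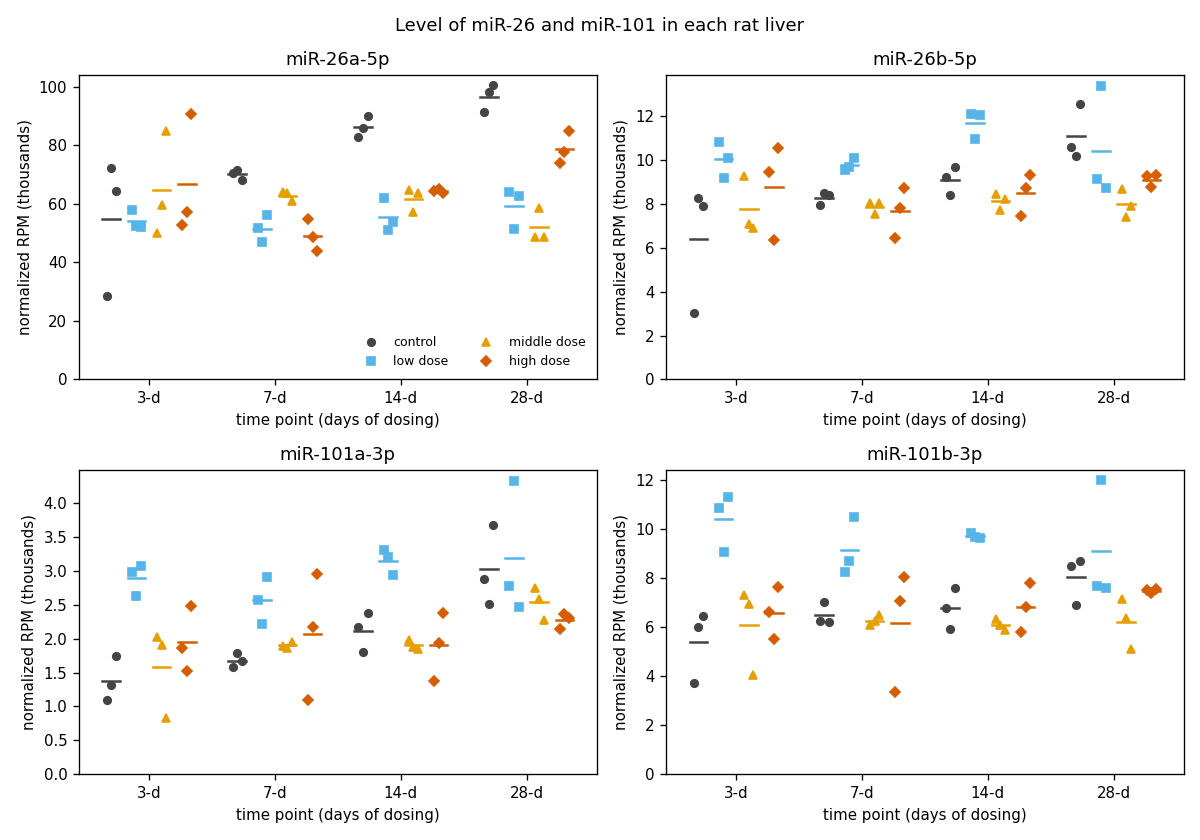
Level of each miRNA in every rat liver, as normalized RPM, by time point (x axis) and dose (color and marker). Points are rats (3 per group) and bars are group means. The 28-d controls hold the highest miR-26a-5p levels, from 91257 to 100457 normalized RPM, and the low-dose groups lie above the controls for miR-101a-3p and miR-101b-3p at each time point before 28-d.

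miR-26a-5p was lower in TAA-treated liver from 7-d on. Against time-matched controls it was a DEM, downregulated, in 3 of 12 conditions, where 5.98% of all tests over the 12 conditions and 301 miRNAs gave a lower DEM. Its adjusted p was below 0.05, always in the lower direction, in 6 of 12 conditions, against 5.68% of all tests. The levels of the treated and control rats did not overlap in 9 of 12 conditions, which were all of those after 3-d, compared with 35.5% of all tests in either direction.

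At 7-d the controls held 70435, 71678 and 68038 normalized RPM of miR-26a-5p. The low-dose rats had 51568, 46804 and 56162, the middle-dose rats 64015, 63564 and 60806, and the high-dose rats 54854, 48796 and 43742. Every treated rat was below every control. Of all miRNAs, 53.2%, 46.2% and 35.2% did not overlap the controls at the low, middle and high dose. The change was a decrease of 1.36-fold at the low dose (log2 fold change −0.44, SE 0.087, edgeR adjusted p = 0.00422) and of 1.43-fold at the high dose (−0.51, SE 0.11, edgeR adjusted p = 0.0305). At the middle dose the log2 fold change was −0.16 (SE 0.055) with an edgeR adjusted p of 0.0632. Many miRNAs changed at the low dose, where 42.5% of all had an adjusted p below 0.05, while 13.3% had at the high dose. The high-dose call was lost under 5 of 9 other processing choices and when any of the 7-d controls (replicates 4, 5 and 6 by the running numbers of the labels) was left out (adjusted p up to 0.147).

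At 14-d the controls were higher, with 82709, 85833 and 90114 normalized RPM. The low-dose rats had 62084, 50946 and 53900, the middle-dose rats 64547, 57035 and 63720, and the high-dose rats 64481, 64959 and 63723. All 3 dose groups lay under the control range and close to one another. miR-26a-5p fell 1.55-fold at the low dose (−0.63, SE 0.10, edgeR adjusted p = 0.000864), 1.40-fold at the middle dose (−0.48, SE 0.083, edgeR adjusted p = 0.00231) and 1.34-fold at the high dose (−0.42, SE 0.068, edgeR adjusted p = 0.0166). The share of all miRNAs with an adjusted p below 0.05 was 40.2% at the low, 18.3% at the middle and 2.33% at the high dose, and 32.6% were DEMs at the low dose. The high-dose call was lost under 3 of 9 other processing choices (adjusted p up to 0.421), and without control 14-d replicate 14 or high dose 14-d replicate 8 or 9 (adjusted p up to 0.109).

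At 28-d the controls reached 91257, 98088 and 100457 normalized RPM. The low-dose rats had 64161, 51237 and 62814, the middle-dose rats 48725, 58414 and 48619, and the high-dose rats 73799, 77607 and 84741. The middle-dose group was the farthest from the controls and the high-dose group the nearest. The middle-dose decrease was 1.86-fold (−0.90, SE 0.12, edgeR adjusted p = 0.000444). The low-dose decrease of 1.63-fold was a DEM (−0.70, SE 0.13) whose edgeR adjusted p was 0.0657, and the high-dose log2 fold change was −0.30 (SE 0.095, edgeR adjusted p = 0.0902). The low-dose DEM call was lost under 4 of 9 other processing choices, where the log2 fold change ran from −0.78 to −0.49 over the 9. Without single libraries it was lost in 0 of 6 cases. At the middle dose 35.5% of all miRNAs passed by adjusted p and 32.9% were DEMs, and at the low dose 12.3% were DEMs.

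The 3-d comparison rested on the library that stood apart. The 3-d controls had 28365, 72320 and 64243 normalized RPM of miR-26a-5p, the first of these being replicate 1. The low-dose rats had 57760, 52546 and 52057, the middle-dose rats 49876, 59440 and 84968, and the high-dose rats 52920, 57112 and 90558. All 3 dose groups lay within the control range or ran past its upper end. With all libraries the 3 log2 fold changes lay between −0.02 and 0.28, and without control 3-d replicate 1 between −0.34 and −0.03. Without it, the low-dose value of −0.34 had an edgeR adjusted p of 0.0427, where 24.9% of all miRNAs passed.

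When the 9 treated rats of a time point were set against its 3 controls, miR-26a-5p was the only one of the 4 miRNAs with an adjusted p below 0.05. Across all miRNAs and the 4 time points, 14.2% of these tests passed that threshold and 16.4% gave a DEM. The log2 fold change was −0.37 at 7-d (SE 0.077, edgeR adjusted p = 0.00542), −0.51 at 14-d (SE 0.070, edgeR adjusted p = 0.000727) and −0.63 at 28-d (SE 0.092, edgeR adjusted p = 0.00166), the last being a DEM. The share of all miRNAs that passed by adjusted p was 21.3%, 20.6% and 15% at these time points, and 15.9% were DEMs at 28-d. At 3-d it was 0.17 with all libraries and −0.15 without control 3-d replicate 1. After 3-d the value was larger in size at each later time point, but none of the 9 contrasts of a treatment effect between 2 of the 3 later time points within a dose passed an adjusted p of 0.05 for any of the 4 miRNAs, compared with 0.886% of such tests over all miRNAs.

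miR-26b-5p, which shares its seed with miR-26a-5p, was a DEM in 0 of 12 conditions (18.1% of all tests gave a DEM in either direction). By adjusted p alone it was higher in 2 conditions and lower in 1, compared with 9.61% and 5.68% of all tests. At 14-d the low-dose rats had 12087, 10944 and 12036 normalized RPM and the controls 9205, 8401 and 9675. The low-dose level was 1.29-fold above the controls (0.36, SE 0.11, edgeR adjusted p = 0.0224), in the opposite direction to miR-26a-5p in the same livers. At 7-d the low-dose rats had 9535, 9671 and 10072 and the controls 7930, 8511 and 8394, an increase of 1.18-fold (log2 fold change 0.24, SE 0.078, edgeR adjusted p = 0.0377). At 28-d the middle-dose rats had 8694, 7393 and 7886 and the controls 10579, 10166 and 12571, a decrease of 1.39-fold (−0.47, SE 0.15, edgeR adjusted p = 0.0316). The direction of these 3 values was the same under 4 scalings of the libraries, but the adjusted p was below 0.05 under 2 of them for low dose 14-d and under 3 for the other two. The low dose 7-d call was lost without any single one of its 6 libraries (adjusted p 0.0530 to 0.128), the low dose 14-d call without control replicate 14 or low-dose replicate 40 or 42 (up to 0.0811), and the middle dose 28-d call without control replicate 18 or any middle-dose rat (up to 0.105). Under 9 other processing choices these calls were lost in 4, 7 and 3.

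The calls of the miR-101 members against time-matched controls were at the low dose before 28-d. miR-101a-3p was a DEM, upregulated, in 2 of 12 conditions and miR-101b-3p in 1, which makes 3 of 24 tests, a share near the 12.1% of all tests that gave a higher DEM. By adjusted p each was higher in 2 conditions, low dose 7-d and low dose 14-d, compared with 9.61% of all tests, and lower in 0. By the running numbers of the labels, the low-dose rats of 3-d, 7-d and 14-d are 40 to 48 and those of 28-d are 28 to 30. The controls are 1 to 6 and 13 to 18. These groups thus differ in running number as well as in dose and time, and the part of the running number was not tested.

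At 7-d the low-dose rats had 2568, 2223 and 2903 normalized RPM of miR-101a-3p and the controls 1580, 1785 and 1664. miR-101b-3p stood at 8249, 8720 and 10516 in the same low-dose rats and at 6262, 7025 and 6214 in the controls. Neither miRNA overlapped between the groups, and 53.2% of all miRNAs did not. miR-101a-3p rose 1.53-fold (0.61, SE 0.12, edgeR adjusted p = 0.00350), and miR-101b-3p rose 1.41-fold (0.50, SE 0.11, edgeR adjusted p = 0.00804), in a comparison where 28.9% of all miRNAs were DEMs. The DEM call of miR-101a-3p was lost under 4 of 9 other processing choices and in 2 of 6 cases without single libraries. For miR-101b-3p the call by adjusted p was lost under 1 of 9 (adjusted p up to 0.122) and in 0 of 6.

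At 14-d the low-dose rats had 3306, 3202 and 2931 normalized RPM of miR-101a-3p and the controls 2166, 1799 and 2376. For miR-101b-3p the low-dose values were 9836, 9678 and 9629 and the control values 6790, 5914 and 7613. The groups were again apart for both, as they were for 50.2% of all miRNAs, and 40.2% of all passed by adjusted p. miR-101a-3p rose 1.49-fold (0.57, SE 0.14, edgeR adjusted p = 0.00620) and miR-101b-3p 1.43-fold (0.52, SE 0.12, edgeR adjusted p = 0.00565). Under 9 other processing choices the call was lost in 3 for miR-101a-3p (adjusted p up to 0.145) and in 2 for miR-101b-3p (up to 0.242). Without single libraries both calls were lost in 0 of 6 cases.

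At 3-d the low-dose rats had 2988, 2625 and 3074 normalized RPM of miR-101a-3p and the controls 1088, 1312 and 1746. miR-101b-3p stood at 10883, 9070 and 11300 in the low-dose rats and at 3743, 6000 and 6441 in the controls. Both miRNAs were DEMs, with log2 fold changes of 1.07 (SE 0.28) and 0.95 (SE 0.30), but their edgeR adjusted p was 0.219. In this comparison 16.6% of all miRNAs were DEMs, and the median log2 fold change of all miRNAs was 0.16. Without control 3-d replicate 1, which held the lowest value of both, the values were 0.92 for miR-101a-3p (edgeR adjusted p = 0.0115) and 0.74 for miR-101b-3p (edgeR adjusted p = 0.0111), with 24.9% of all miRNAs passing.

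At 28-d the low-dose rats no longer stood apart. Their miR-101a-3p values were 2773, 4317 and 2472 normalized RPM, and the controls had 2885, 2507 and 3672. Their miR-101b-3p values were 7674, 12004 and 7618, and the controls had 8517, 6927 and 8699. The log2 fold changes were 0.08 (SE 0.27, edgeR adjusted p = 0.882) and 0.18 (SE 0.23, edgeR adjusted p = 0.729). The rat with the highest values of both miRNAs, the second of the 3 listed, was also the highest of its group for miR-26b-5p (13364 against 9111 and 8729) and the lowest for miR-26a-5p.

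**Figure D2:**
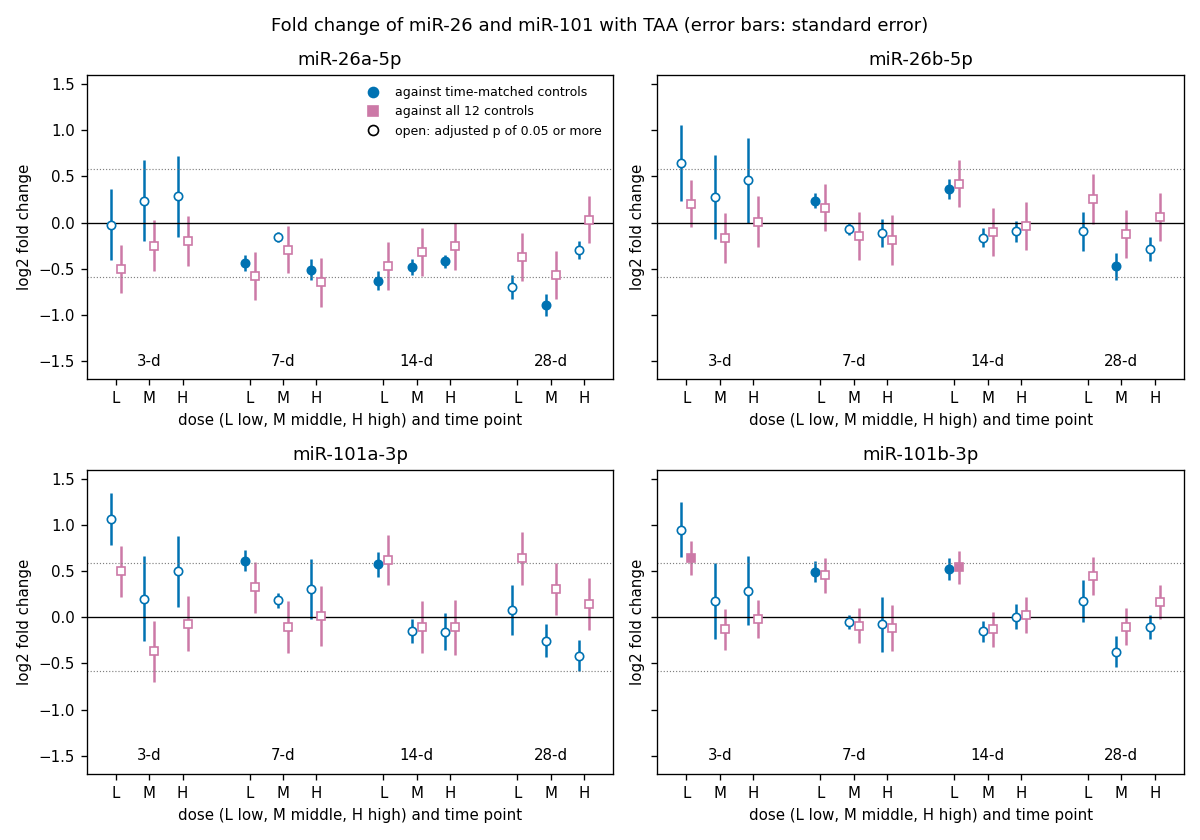
log2 fold change of each miRNA in the 12 conditions (x axis, dose and time point) against time-matched controls (circles) and against all 12 controls (squares), with standard errors. Filled symbols have an adjusted p below 0.05 and dotted lines mark a 1.5-fold change. miR-26a-5p lies under 0 in 10 of 12 conditions against time-matched controls and in 11 of 12 against all controls.

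The differences between doses were tested directly in a single fit of all 48 libraries. Of the 48 values for pairs of doses at a time point (4 miRNAs, 12 pairs), 7 passed an adjusted p of 0.05, and over all miRNAs 10.9% of such tests passed. For miR-101, 6 of the 7 were lower levels at the middle or high dose than at the low dose. At 3-d the middle-dose rats had 2020, 1908 and 836 normalized RPM of miR-101a-3p, under all low-dose rats (−0.87, SE 0.27, edgeR adjusted p = 0.0285). At 14-d the middle-dose rats had 1985, 1881 and 1849 (−0.72, SE 0.27, edgeR adjusted p = 0.0435) and the high-dose rats 1382, 1942 and 2372 (−0.73, SE 0.27, edgeR adjusted p = 0.0487), again under all low-dose rats. miR-101b-3p gave −0.77 for middle minus low at 3-d, −0.66 for high minus low at 3-d and −0.67 for middle minus low at 14-d. For miR-26a-5p the remaining call was the higher level at the high than at the middle dose at 28-d (0.60, SE 0.20, edgeR adjusted p = 0.0471). By contrast, the share of all miRNAs that passed was 11.6% for middle minus low and 13.6% for high minus low at 3-d, 23.3% and 19.3% for the same pairs at 14-d, and 10.6% for high minus middle at 28-d.

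Without control 3-d replicate 1 in the same fit, the 7 calls stood and 3 more were made, which were miR-101b-3p for middle minus low at 7-d (−0.55) and miR-26b-5p for middle minus low (−0.53) and high minus low (−0.46) at 14-d. The share of all miRNAs that passed rose as well, to 38.2%, 32.6% and 27.2% in these 3 contrasts.

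Against all 12 controls together, the picture for miR-26a-5p depended on control 3-d replicate 1. With it, 4 of 48 values were DEMs, and over all miRNAs 15% of these tests gave a DEM. They were miR-26a-5p at high dose 7-d (−0.65, edgeR adjusted p = 0.125), miR-101a-3p at low dose 14-d (0.62, edgeR adjusted p = 0.137) and 28-d (0.64, edgeR adjusted p = 0.330), and miR-101b-3p at low dose 3-d (0.64, edgeR adjusted p = 0.0240). By adjusted p, miR-101b-3p was higher at low dose 3-d and 14-d (0.54, edgeR adjusted p = 0.0464) and no other member passed, compared with 9.03% of all tests. The 4 DEMs stood beside sizeable shares of all miRNAs called by the same rule, 20.3% at high dose 7-d, 23.3% at low dose 3-d and at low dose 14-d, and 11.3% at low dose 28-d. By adjusted p these shares were 15.9% at low dose 3-d and 20.3% at low dose 14-d. By direction, 10.8% of all tests gave a higher and 4.24% a lower DEM, and 7.12% and 1.91% passed by adjusted p, while against time-matched controls 15.3% of all tests passed by adjusted p in either direction.

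Without control 3-d replicate 1, miR-26a-5p was a downregulated DEM in 4 conditions against the 11 remaining controls. These were low dose 3-d (−0.59, edgeR adjusted p = 0.00270), low dose 7-d (−0.66, edgeR adjusted p = 0.00120), high dose 7-d (−0.73, edgeR adjusted p = 0.00120) and middle dose 28-d (−0.65, edgeR adjusted p = 0.00167). Low dose 14-d (−0.55, edgeR adjusted p = 0.00482) and middle dose 14-d (−0.40, edgeR adjusted p = 0.0444) passed by adjusted p. For these the share of all miRNAs with an adjusted p below 0.05 was 38.9%, 44.5%, 30.9%, 31.6%, 35.9% and 17.6% in the order named. For the 4 DEM conditions, 25.9%, 31.2%, 25.6% and 25.9% of all miRNAs were DEMs in either direction, in the same order. The 3 miR-101 DEMs were lost without this library, with miR-101a-3p at 0.56 at low dose 14-d (edgeR adjusted p = 0.0649) and 0.58 at low dose 28-d (edgeR adjusted p = 0.169), and miR-101b-3p at 0.58 at low dose 3-d (edgeR adjusted p = 0.00148), under the fold threshold. By adjusted p miR-101b-3p passed at low dose 3-d, low dose 14-d (0.48, edgeR adjusted p = 0.00419) and also low dose 7-d (0.40, edgeR adjusted p = 0.0171), and miR-26b-5p passed at low dose 14-d (0.34, edgeR adjusted p = 0.0456). Whether the miR-26a-5p decrease was called by adjusted p against pooled controls thus rested on this library.

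The controls themselves were not level over time. For all 4 miRNAs the log2 difference of the later minus the earlier control group was above 0 in each of the 6 pairs of time points. With all 12 controls only miR-101a-3p between 3-d and 28-d passed (1.13, SE 0.24, edgeR adjusted p = 0.0194), and 1.61% of such tests over all miRNAs passed, 7.31% for that pair of time points. The 28-d controls had 2885, 2507 and 3672 normalized RPM of miR-101a-3p, above every earlier control. Without control 3-d replicate 1, 7 of the 24 values passed. miR-26a-5p was then higher at 28-d than at 3-d (0.50, edgeR adjusted p = 0.00244) and at 7-d (0.46, edgeR adjusted p = 0.00228), and at 14-d than at 3-d (0.34, edgeR adjusted p = 0.0476). miR-26b-5p was higher at 28-d than at 3-d (0.46, edgeR adjusted p = 0.0190) and 7-d (0.42, edgeR adjusted p = 0.0213), and so was miR-101a-3p (0.98, edgeR adjusted p = 0.00525, and 0.85, edgeR adjusted p = 0.00521). The share of all miRNAs that passed was 23.3% for 28-d against 3-d, 19.3% for 28-d against 7-d and 5.98% for 14-d against 3-d.

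The order of the 16 group means set these levels together. For miR-26a-5p it ran from high dose 7-d (49131 ± 5564 normalized RPM, SD, n = 3) to the 28-d controls (96600 ± 4777), and 13 of 15 neighbours in that order overlapped. For miR-26b-5p 14 of 15 neighbours overlapped, and for each miR-101 member all 15 did, so neighbouring groups could not be ranked. The highest mean was that of low dose 14-d for miR-26b-5p (11689 ± 646), of low dose 28-d for miR-101a-3p (3187 ± 990) and of low dose 3-d for miR-101b-3p (10418 ± 1185), and the lowest mean of these 3 was that of the 3-d controls, which hold replicate 1.

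The ratio of the 2 miRNAs of a family within a library needs no normalization. In the 4 control groups the reads of miR-26a-5p exceeded those of miR-26b-5p by mean factors of 8.74 ± 0.605, 8.47 ± 0.390, 9.51 ± 0.638 and 8.76 ± 0.836 in the order of time (SD, n = 3). In the low-dose groups the factors were 5.40 ± 0.296, 5.27 ± 0.386, 4.76 ± 0.341 and 6.02 ± 1.90 in the same order. Each low-dose rat had a ratio below that of each control of its time point, control 3-d replicate 1 included. The single low-dose values were 5.15, 5.33 and 5.73 at 3-d, and 4.84, 5.41 and 5.58 at 7-d. The 14-d rats had 4.48, 4.66 and 5.14, and the 28-d rats 3.83, 7.04 and 7.20.

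Over the 4 time points the low-dose ratio was 1.67-fold lower than in the controls (mean log2 difference −0.74, exact permutation test within time points, 2-sided, p = 1.25e-05, the smallest these permutations can give, adjusted p = 9.38e-05 over 15 ratio and dose combinations, n = 12 and 12). The direction was the same at 4 of 4 time points. At the middle and high dose the mean log2 differences were −0.23 (exact permutation adjusted p = 0.0789) and −0.23 (exact permutation adjusted p = 0.0557). The low dose also differed directly from the middle dose (−0.51, exact permutation adjusted p = 0.000625 over 4 tests) and from the high dose (−0.51, exact permutation adjusted p = 0.000200). These tests by dose were chosen after the values had been seen. As given above, the low-dose rats also differ from the controls in running number. The part of the running number in the ratios was not tested. The direct comparison of doses was run only for this ratio and that of miR-26 to miR-101, which had passed at the low dose. It used the same low-dose libraries, so it is not separate support. In the test of all 9 treated rats against 3 controls per time point, 0 of 28 ratio and time point combinations had an exact permutation adjusted p below 0.05, and the lowest unadjusted p for this ratio was 0.00909 at 14-d. A p of 0.00909 is the smallest this 2-sided test can give, so few tests could pass after adjustment.

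**Figure D3:**
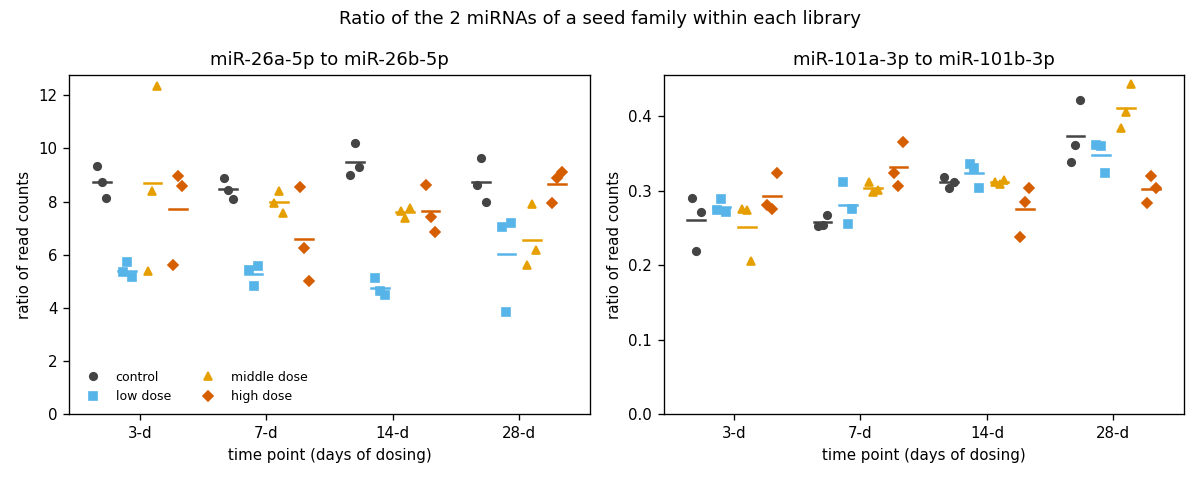
Ratio of the read counts of miR-26a-5p to miR-26b-5p (left) and of miR-101a-3p to miR-101b-3p (right) in each library, by time point and dose, with group means as bars. The low-dose points of the miR-26 ratio lie between 3.83 and 7.20 and under all controls of their time point, whereas the low-dose points of the miR-101 ratio overlap the controls at each time point.

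For the miR-101 members no change of proportion passed the test. Over the 4 time points the log2 ratio of miR-101a-3p to miR-101b-3p differed from the controls by 0.05 at the low dose, 0.08 at the middle dose and 0.01 at the high dose (exact permutation adjusted p = 0.556, 0.309 and 0.926). In the controls the mean of this ratio was 0.260, 0.258, 0.312 and 0.374 at the successive time points. The summed miR-26 reads over the summed miR-101 reads were 1.83-fold lower at the low dose (mean log2 difference −0.87, exact permutation p = 1.25e-05, adjusted p = 9.38e-05), at 4 of 4 time points. At the middle and high dose the values were −0.20 and −0.21 (exact permutation adjusted p = 0.309 for both). The low dose differed from the middle dose by −0.67 and from the high dose by −0.67 (exact permutation adjusted p = 0.000175 for both).

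Marker levels moved too, at the low dose and in other dose groups. The 5 hepatocyte markers summed to between 319947 and 373606 RPM in the 12 low-dose rats, above the highest control at 315480 RPM. The middle-dose 28-d rats, with 324132 to 350099 RPM, were above that control as well. The 4 leukocyte markers (both strands of miR-142, miR-223-3p and miR-150-5p) summed to 1816 to 2543 RPM at low dose 7-d against 3098 to 3701 in the 7-d controls, and to 2079 to 2440 at low dose 14-d against 3142 to 3844 in the 14-d controls. At the middle dose they went the other way at 7-d, with 3764 to 4000 RPM, and at 28-d, with 4790 to 6176 against 3542 to 4473 in the 28-d controls. They overlapped the controls at middle dose 3-d (2231 to 4058, controls 2941 to 3555) and 14-d (2887 to 4028, controls 3142 to 3844). The part of the markers in the miR-26 and miR-101 differences was not tested. Over all 36 treated rats the smooth muscle and stellate cell markers summed to 30974 to 49731 RPM (controls 23284 to 47438), the endothelial markers to 16255 to 28370 (controls 8257 to 28461) and the epithelial and bile duct markers to 267 to 1489 (controls 518 to 1394), ranges that overlapped over all time points together but not within each time point. The smooth muscle and stellate cell sum was mostly miR-143-3p. Its other members, miR-145-5p, both strands of miR-199a and miR-214-3p, had means of 28.9 to 717 RPM over all libraries. At low dose 7-d the epithelial and bile duct markers (355 to 484 RPM, 7-d controls 1059 to 1072) and endothelial markers (18014 to 19691, controls 20495 to 22586) were lower. At low dose 14-d both were lower again (402 to 611 against 630 to 938, and 17441 to 20150 against 21531 to 24112). The smooth muscle and stellate cell markers were higher there (42836 to 47069 against 39714 to 42470) and at high dose 14-d (44922 to 47831). At 28-d this sum was higher at the middle dose (37343 to 39066) and the high dose (40041 to 45630) than in the controls (23284 to 37237). At the middle dose it was lower at 7-d (34856 to 41985 against 42423 to 46697) and at 14-d (30974 to 36950). The red blood cell markers summed to 872 to 8795 RPM in treated rats, and the skeletal or heart muscle markers to a median of 4.25 RPM in treated rats and 7.27 in controls, with miR-1-3p and miR-206-3p at 0 in most libraries.

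The other strands of the 4 precursors were scarce. miR-26b-3p had a mean of 29.2 RPM in controls and miR-101a-5p 10.9 RPM, and both were tested. miR-26a-3p, which ranked 316 of 664 in controls, and miR-101b-5p, which ranked 350, were under the filter and were not tested. Both tested strands were DEMs in 4 of 24 tests, all lower (16.7%, against 5.98% of all tests). At 28-d, miR-26b-3p fell 1.86-fold at the middle dose (−0.90, SE 0.22, edgeR adjusted p = 0.0103) and was a DEM at the low dose (−0.69, SE 0.25) with an edgeR adjusted p of 0.249. miR-101a-5p was a DEM at middle dose 14-d (−0.65, SE 0.23, edgeR adjusted p = 0.0695) and at low dose 28-d (−0.61, SE 0.23, edgeR adjusted p = 0.274).

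The guide strand of miR-101a stood higher over its other strand at the low dose than in the controls, but the test passed only without control 3-d replicate 1. Reads of miR-101a-3p exceeded those of miR-101a-5p by 254 to 310 times at low dose 7-d and by 146 to 195 times in the 7-d controls. At 14-d the factors were 255 to 332 at the low dose and 153 to 171 in the controls. The middle-dose rats were above these controls as well, with factors of 224 to 263 at 7-d and 194 to 268 at 14-d. Over the 4 time points the log2 ratio was 0.55 higher at the low dose (exact permutation adjusted p = 0.0557), and 0.73 higher without control 3-d replicate 1 (exact permutation adjusted p = 0.000125), which had 386 reads of miR-101a-3p and 0 of miR-101a-5p. At the middle dose it was 0.07 higher, and 0.26 without that library (exact permutation adjusted p = 0.926 and 0.0899). The high dose gave 0.03, and 0.22 without that library (exact permutation adjusted p = 0.935 and 0.111). The ratio of miR-26b-5p to miR-26b-3p was 0.21 higher at the low dose on the log2 scale (exact permutation adjusted p = 0.0864), and 0.25 higher without that library (exact permutation adjusted p = 0.0303), with the same direction at 3 of 4 time points and a lower ratio at 3-d (−0.25, or −0.12 without that library). At 14-d the treated rats of all 3 doses had miR-26b ratios of 278 to 383, above the controls at 237 to 272.

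**Figure D4:**
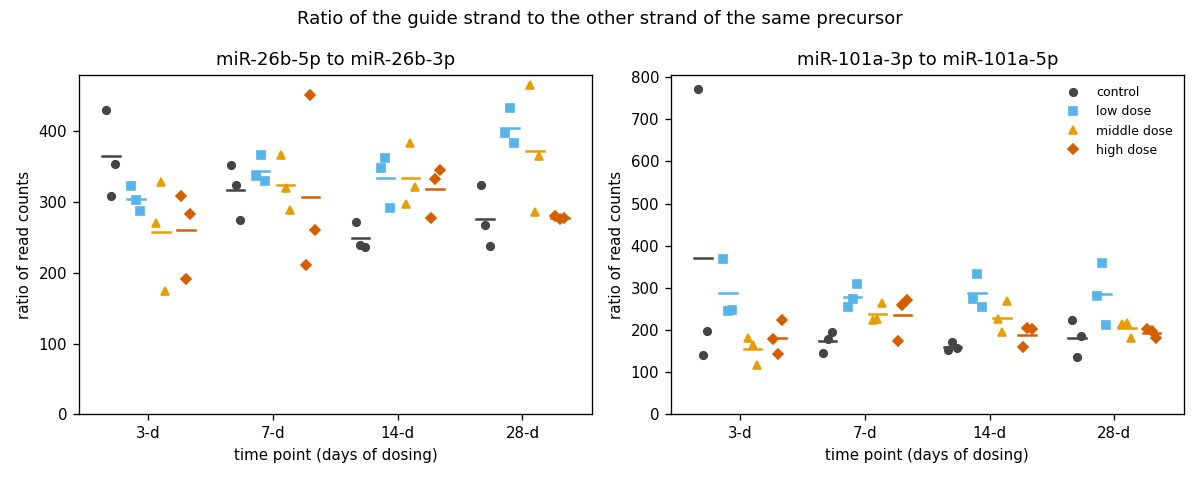
Ratio of the read counts of the guide strand to those of the other strand of the same precursor in each library, for miR-26b (left) and miR-101a (right), by time point and dose, with group means as bars. The miR-101a ratios of the low dose lie at 212 to 368, above the 7-d and 14-d controls, and the control point at 773 is 3-d replicate 1. The middle-dose miR-101a ratios at 7-d (224 to 263) and 14-d (194 to 268) lie above the controls of their time point as well.

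Over the 16 group means the profile of miR-26a-5p was unlike that of the other 3 members. These correlations (Pearson r of log2 normalized RPM, n = 16 groups of the same 48 libraries) are descriptive and share normalization and depth. miR-26a-5p was closest to miR-30b-5p (r = 0.971), miR-122-3p (r = 0.886) and miR-10a-3p (r = 0.856). Its r was 0.334 with miR-26b-5p, 0.0748 with miR-101a-3p and 0.0306 with miR-101b-3p. Without control 3-d replicate 1 these values were 0.187, −0.0993 and −0.107. miR-26b-5p was instead closest to let-7f-5p (r = 0.907), miR-203a-3p (r = 0.903) and miR-101b-3p (r = 0.883), and r with miR-101a-3p was 0.881. miR-101a-3p was closest to miR-99a-3p (r = 0.914), miR-26b-5p (r = 0.881) and miR-101b-3p (r = 0.855). miR-101b-3p was closest to miR-30e-3p (r = 0.936), miR-218a-5p (r = 0.895) and miR-26b-5p (r = 0.883). By profile, miR-26b-5p thus stood nearer to the miR-101 members than to miR-26a-5p.

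Other miRNAs described as liver tumor suppressors or oncomirs moved in both directions. Of 29 listed tumor suppressors, 27 were tested, and 39 of 324 tests gave a higher DEM (12%) and 20 a lower DEM (6.17%), against 12.1% and 5.98% of all tests. Their median log2 fold change in a condition was between −0.33 and 0.31, and that of all miRNAs between −0.06 and 0.28. Of 29 listed oncomirs, 27 were tested, with 30 higher DEMs (9.26%) and 12 lower (3.70%), and medians between 0.04 and 0.43. Among the tumor suppressors, miR-34a-5p, a target of p53, was a higher DEM in 12 of 12 conditions, and miR-29a-3p, which represses collagen messenger RNAs, was a lower DEM in 4, as was miR-145-5p. Among the oncomirs, miR-182 was a higher DEM in 5 conditions. miR-92a-3p, of the miR-17 to miR-92a cluster, was a lower DEM in 2, both at 3-d, and in 1 without control 3-d replicate 1. The oncomirs miR-19a-3p, miR-19b-3p and miR-10b-5p were lower DEMs in 2 conditions as well.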

How the data were processed

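Small RNA libraries (Illumina TruSeq, HiSeq2000) were made from total liver RNA, pooled and size-selected on a gel by the authors. The deposited values are raw counts per miRNA, for which the authors removed adaptor sequence, retained reads 18 to 25 bases long, and mapped and counted these with miRDeep2 against miRBase release 21 (genome build rn5 per the labels). The deposited counts were not normalized, filtered or pooled.

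Where a mature miRNA had several precursors, the row with the most reads was used. Tests used edgeR 4.0.16 in R 4.3.3 (glmQLFit and glmQLFTest) with upper quartile normalization. Each condition was fitted with its 3 time-matched controls, and again with all 12 controls. The 9 treated rats against 3 controls were fitted per time point, dose pairs and differences of effects in 1 fit of 48 libraries, and the controls alone. Ratios used counts plus 0.5 and exact 2-sided permutation tests; with 3 rats against 3 the smallest possible p is 0.1, so ratios were pooled over doses or time points. The 3 libraries of a group are biological replicates per the study's methods. Scripts were tested on simulated data.

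The alternatives were TMM, DESeq2 size factors and library size alone, no filter or a stricter filter, DESeq2 1.42.0 and edgeR's exact test, the sum of the precursors, and each library left out. The members and lists were chosen with earlier results of these data known. The named miRNAs are the 4 members, their other strands, the 3 with the closest profile over the 16 groups, and from each list the miRNA called higher and the one called lower in the largest number of conditions, with ties going to the higher mean RPM; tied miRNAs were added after their values were seen. Of 664 mature miRNAs, 598 matched the RefSeq sequence table by name. A count of 0 allows up to 3 counts, for counting error only.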

Additional observations from a re-analysis of the deposited data

Results flagged for a closer look

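Of the results above, 7 were singled out because the difference between 2 dose groups of the same time point passed a test of that difference in the fit of all 48 libraries (edgeR, adjusted p below 0.05). The log2 difference of middle minus low dose at 3-d was −0.87 for miR-101a-3p and −0.77 for miR-101b-3p, and that of high minus low dose at 3-d was −0.66 for miR-101b-3p. At 14-d middle minus low dose was −0.72 for miR-101a-3p and −0.67 for miR-101b-3p, and high minus low dose was −0.73 for miR-101a-3p. High minus middle dose at 28-d was 0.60 for miR-26a-5p. All 7 contrasts are between treated groups, so control 3-d replicate 1 enters only through the filter, the normalization and the shared spread, and the 7 stood without it. Under the 3 other processing choices (TMM, library size alone, no filter) both 14-d values of miR-101a-3p lost their call in 3 of 3 (adjusted p 0.0751 to 0.255 and 0.136 to 0.334). For middle minus low dose at 3-d, miR-101a-3p and miR-101b-3p each lost it in 2 of 3 (up to 0.0947 and 0.0799). So did miR-101b-3p for middle minus low dose at 14-d (up to 0.232) and miR-26a-5p at 28-d (up to 0.148). The call of miR-101b-3p for high minus low dose at 3-d was lost in 1 of 3 (up to 0.0582). Without single libraries, the call was lost in 33 of 48 cases for miR-101a-3p high minus low dose at 14-d, in 33 for miR-26a-5p at 28-d, in 30 for miR-101b-3p high minus low dose at 3-d, and in 3 to 6 for the other 4.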

How the results depend on the processing

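No paired analysis was possible because the running numbers 1 to 48 in the labels are unique to each rat and no 2 groups share one. No called value of a member reversed under any alternative. Against time-matched controls, adjusted p at any fold change gave 6 conditions for miR-26a-5p (3 as DEMs), 3 for miR-26b-5p (0) and 2 for miR-101b-3p (1), and with the fold threshold 1 for miR-101a-3p (2) and 0 for miR-101b-3p. miR-26b-5p had 1 DEM with no filter and 1 in a single fit of 48 libraries. miR-101a-3p had 1 under DESeq2 size factors, library size alone, no filter and the DESeq2 Wald test. Leaving out single libraries gave 2 to 4 DEMs for miR-26a-5p, 0 to 0 for miR-26b-5p, 1 to 3 for miR-101a-3p (1 without control 7-d replicate 4 or low dose 7-d replicate 48) and 0 to 2 for miR-101b-3p (0 without low dose 3-d replicate 43 or 45, 2 without control 14-d replicate 15). Against all controls the 4 DEMs became 2 by adjusted p and 2 to 5 without single libraries (2 without control 14-d replicate 14). The DEM among 9 treated against 3 controls became 0 under TMM and library size alone and 3 calls by adjusted p, and was 1 to 2 without single libraries (2 without control 3-d replicate 3 or middle dose 3-d replicate 12). The 7 dose differences became 2 under library size alone, 3 with no filter and 2 to 10 without single libraries, 26 of 48 of which moved the count by over 1.5 times. The 1 call over time in controls became 3 under TMM and 0 to 7 without single libraries (7 without control 3-d replicate 1, 2 without replicate 2, 0 without control 28-d replicate 17 or 18). The 4 DEMs of the other strands became 1 under library size alone and 10 with no filter. The ratio tests per time point gave 0 to 0 calls, which says nothing about stability, since the smallest 2-sided p of 9 rats against 3 is 0.00909. The low-dose log2 ratio of miR-26a-5p to miR-26b-5p ranged from −0.78 to −0.67, and that of miR-26 to miR-101 from −0.92 to −0.80, without single libraries. The cause of these changes was not tested.

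Scaling moved the median log2 fold change of all miRNAs, among the time-matched comparisons most at middle dose 28-d (0.02 with upper quartile, 0.30 with library size alone), and in the fit of all libraries from −0.14 to 0.22 for high minus low dose at 14-d. Of the 48 time-matched values, 11 changed sign under another scaling, 0 of them with an adjusted p below 0.05 and 0 of miR-26a-5p. Depth limits the other strands most.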
